A study of Homo sapiens with 7 samples.

Results

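The regions described here were 827 short peaks of ubiquitylated histone H2A that were called in siControl cells and called again after siVRK1. They came from the list of H2A ubiquitylated at lysine K119 (ubK119) in siControl cells. Each was under 500 bp long, overlapped a ubK119 peak under 500 bp of siVRK1 cells by at least 1 bp, and overlapped no peak of either input DNA. They made up 2.86% of the 28955 siControl ubK119 peaks and 3.601% of the 22965 that were short and outside input peaks. The overlapping siVRK1 peaks numbered 819, or 6.68% of the 12256 short ubK119 peaks of that list, and 795 of them lay outside input peaks. The regions were chosen by the peak calls and lengths of the ubK119 lists and the peak calls of the inputs, so ubK119 levels are given as a description only.

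The cells were HT1080, a human fibrosarcoma line, in which the kinase VRK1 was targeted by transfected small interfering RNA (siVRK1) or a non-targeting RNA was used (siControl). In siVRK1 cells ubK119, H2A phosphorylated at threonine T120 (pT120) and input DNA were sequenced, and in siControl cells the same 3 and VRK1 itself. Each group was 1 library, so each value below compares libraries and has no replicate check, and no p-value is given. No VRK1 library of siVRK1 cells was analysed here, so the depletion of VRK1 was not checked. K119 and T120 are neighbouring residues in the tail of H2A. Polycomb repressive complex 1 places ubiquitin on K119, a mark known from silenced developmental genes, and VRK1 is a kinase of T120 that phosphorylates several chromatin proteins.

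Library totals were 30.0 M (1 M is 1000000 reads) for siVRK1 ubK119, 40.4 M for siControl ubK119, 36.0 M for siVRK1 pT120, 20.7 M for siControl pT120, 32.0 M for VRK1, 33.3 M for the siVRK1 input and 26.9 M for the siControl input. Levels are in RPM, the reads in a region per 1000000 reads of the library, and 3 reads corresponded to between 0.0742 and 0.145 RPM. The 95% intervals cover only counting error, and amplified copies without molecular identifiers do not count independent molecules. Positions are in hg19 as deposited, and the regions were not annotated with genes or sequence here.

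Most kept peaks were low and only partly in the same place under both siRNAs. Their length ranged from 200 to 496 bp, with a median of 258 bp. Heights of the siVRK1 partners ran from 18 to 172 extended reads with a median of 20, and heights in siControl cells from 15 to 73 reads with a median of 16. The lowest peak of the whole siVRK1 list had 18 reads, and 26.5% of the partners stood at that minimum. The lowest peak of the siControl list had 15 reads, and 33.1% of the kept peaks stood at that minimum. The centres of partner peaks lay a median of 132.5 bp apart, and for 176 of the 827 peaks within 50 bp. The siVRK1 peak covered a median of 51.3% of the siControl peak, from 0.752% to 100%. Being kept thus meant a call in the same stretch of DNA, and for many regions with centres well apart.

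At the length limit, the longest kept peaks measured 496, 494 and 493 bp. Their ubK119 levels were 0.967, 1.001 and 1.33 RPM in siVRK1 cells and 0.890, 0.841 and 0.816 RPM in siControl cells. The next longer siControl peaks that fulfilled the rest of the rule measured 506, 506 and 507 bp, with 1.10, 0.967 and 0.901 RPM in siVRK1 cells and 0.841, 0.791 and 0.940 RPM in siControl cells. These ubK119 levels overlapped in range across the limit, as did those of siControl pT120 and VRK1. siVRK1 pT120 was lower in the 3 peaks under 500 bp, at 0.194, 0.333 and 0.139 RPM, against 0.389, 0.416 and 0.555 RPM. Over whole sets it was not, at 0.539 RPM per kb in the 827 short peaks and 0.488 RPM per kb in the 221 longer peaks also overlapped by a siVRK1 peak. The siVRK1 input was at 0.631, 0.541 and 0.541 RPM in the 3 peaks under 500 bp, against 0.692, 0.692 and 0.872 RPM. The siControl input was at 0.297, 0.372 and 0.223 RPM, against 0.781, 0.521 and 0.706 RPM. A further 227 short siControl peaks overlapped only siVRK1 peaks of 500 bp or more and were therefore not counted.

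Summed over the 827 regions, ubK119 stood at 535 RPM in siVRK1 cells and 414 RPM in siControl cells, a ratio of 1.29 (1.27 to 1.32). The siVRK1 list has the higher minimum, 0.600 RPM against 0.371 RPM, which favours this direction. The inputs stood at 209 RPM in siVRK1 cells and 168 RPM in siControl cells, and their ratio was 1.24 (1.199 to 1.29). Set against input by library totals, ubK119 stood at 2.57 times (2.495 to 2.64) in siVRK1 cells and 2.47 times (2.39 to 2.55) in siControl cells. The ratio of these values was 1.04, with an interval (0.996 to 1.09) that includes 1. The near equality holds for library totals and reads counted in the siControl peaks. Scaled to reads in regions called in both inputs, ubK119 was 2.72 times input in siVRK1 cells and 3.89 times in siControl cells, a ratio of 0.701 (0.671 to 0.732), and without input the ubK119 ratio of siVRK1 to siControl was 0.958, on the other side of 1. Scaled to siControl input peaks, ubK119 was 2.60 times input in siVRK1 cells and 5.24 times in siControl cells. Counted in the siVRK1 peaks by library totals, it was 3.06 times input in siVRK1 cells and 1.91 times in siControl cells. The direction of the ubK119 ratio over input thus differed between these counts and scales.

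Neither pT120 nor VRK1 was used in the choice of regions, and pT120 was lower after siVRK1. It stood at 125 RPM in siVRK1 cells and 249 RPM in siControl cells, or 0.502 (0.482 to 0.522) of the siControl level. In a single region the median was 0.111 RPM in siVRK1 cells and 0.242 RPM in siControl cells, and pT120 was lower after siVRK1 in 649 of 827 regions (78.5%, against 56.3% of all siControl ubK119 peaks). Over its own input pT120 stood at 0.599 times (0.576 to 0.622) in siVRK1 cells and 1.49 times (1.43 to 1.55) in siControl cells. With the scale set by regions called in both inputs, siVRK1 pT120 was 0.974 times (0.938 to 1.01) its input, and with siControl input peaks 0.931 times. The pT120 ratio of siVRK1 to siControl was then 0.710 and 0.715, still below 1, and pT120 was lower in 545 of the 827 regions (65.9%) under both scalings, against 39.8% of all siControl ubK119 peaks.

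Single regions held few pT120 reads, so a fold in one region is uncertain. With at least 10 pT120 reads summed over both siRNAs, 402 of the 827 regions could be read. Of these, 195 (48.5%) were at or below 0.5 after siVRK1, where 21.3% of all siControl ubK119 peaks and 21.2% of the short ones outside input peaks were. At or above 2 were 14 (3.48%), where 13.8% of all siControl ubK119 peaks and 18.8% of the short ones outside input peaks were. Scaled to regions called in both inputs, 124 (30.8%) were at or below 0.5 and 33 (8.21%) at or above 2, against 10.2% and 24.0% of all siControl ubK119 peaks. By library totals, the inputs showed the opposite lean. With at least 10 input reads in 612 regions, 25 (4.08%) were at or below 0.5, against 6.86% of all siControl ubK119 peaks and 8.08% of the short ones outside input peaks. At or above 2 were 135 (22.1%), against 14.2% of all and 17.1% of the short ones.

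VRK1, the kinase of T120, was above input in the kept peaks. In siControl cells it stood at 273 RPM, against 168 RPM in the siControl input, a ratio of 1.63 (1.57 to 1.69). It also lay above the 209 RPM of the siVRK1 input, as did siControl pT120 at 249 RPM, while siVRK1 pT120 at 125 RPM lay below both inputs. That position of siVRK1 pT120 holds for library totals, and under the shared-input scale its interval over its own input includes 1. VRK1 exceeded the siControl input in 634 regions (76.7%), against 55.9% of all siControl ubK119 peaks. Regions with input peaks were barred by the choice of regions, which sets the input low in part.

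**Figure D1:**
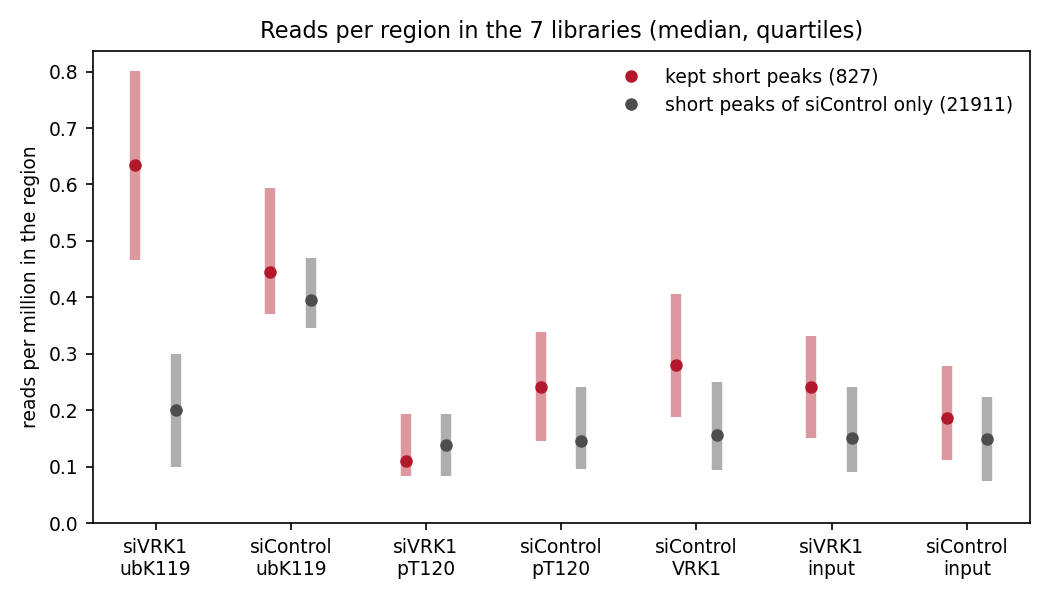
RPM in a region (vertical axis) in each of the 7 libraries, for the 827 kept short peaks and for the 21911 short siControl ubK119 peaks outside input that had no siVRK1 partner. Points are medians and bars run from the lower to the upper quartile of regions; the kept peaks were higher in siControl pT120 (0.242 against 0.145 RPM) and VRK1 (0.281 against 0.156 RPM) and lower in siVRK1 pT120 (0.111 against 0.139 RPM).

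Short siControl ubK119 peaks outside input that had no siVRK1 partner numbered 21911 and served as a comparison. The pT120 ratio of siVRK1 to siControl was 0.502 in the kept peaks and 0.924 (0.915 to 0.932) in these others, so that it was 0.543 times (0.521 to 0.566) as high in the kept peaks. Over input, siControl pT120 was 1.49 times in the kept peaks and 1.01 times (1.003 to 1.02) in the others. VRK1 over input was 1.63 times in the kept peaks and 1.13 times (1.12 to 1.14) in the others, a ratio of 1.44 (1.39 to 1.497) between the groups of regions. Per kb of region, siControl pT120 was at 1.08 RPM in the kept peaks and 0.667 RPM in the others. In siVRK1 cells it was at 0.539 RPM per kb in the kept peaks and 0.616 RPM per kb in the others. Per length, the kept peaks thus held more pT120 than the others in siControl cells and less in siVRK1 cells. These comparisons between groups of regions do not depend on library totals.

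Short ubK119 peaks found after siVRK1 only, 8310 in number, lay beyond the kept peaks. Their pT120 ratio was 0.369 (0.363 to 0.375), so that the ratio of the kept peaks was 1.36 times (1.302 to 1.42) as high. The 221 kept peaks of 500 bp or more stood at 0.541 (0.514 to 0.569) in pT120, and the ratio between the short and the long kept peaks was 0.927 (0.869 to 0.9895). Over its own input, the pT120 of siVRK1 to siControl was 0.403 (0.381 to 0.426) in the short kept peaks and 0.409 (0.382 to 0.438) in the long ones. The short and the long kept peaks were thus much closer to each other than either was to the peaks of siControl cells only. VRK1 over input was 1.46 times in the peaks found after siVRK1 only and 1.51 times in the long kept peaks. Over input, siControl pT120 was 1.32 and 1.31 times in the same order. The 227 short peaks with only a long siVRK1 partner had a pT120 ratio of 0.418 (0.384 to 0.454). Their VRK1 and siControl pT120 over input were 1.82 and 1.55 times, so these traits were not particular to the short kept peaks.

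**Figure D2:**
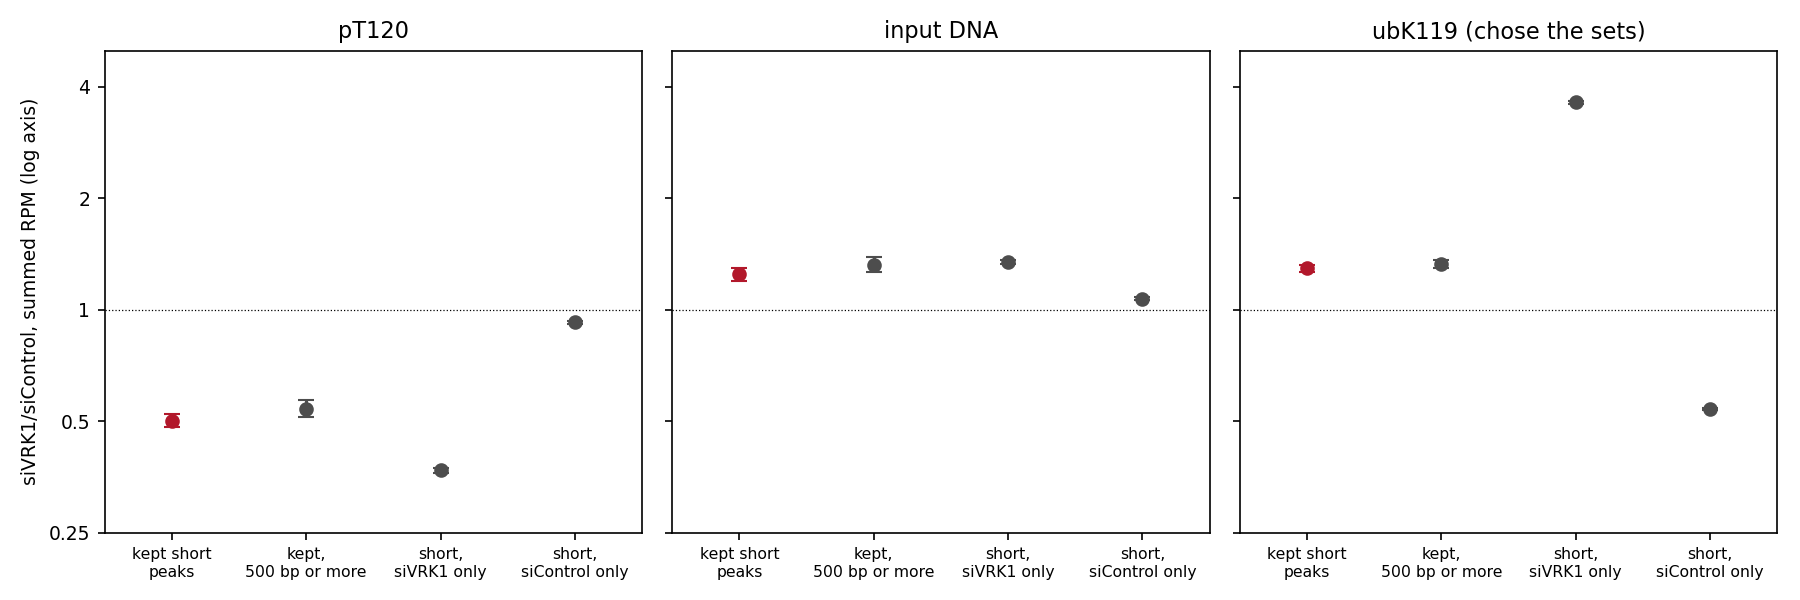
Ratio of summed RPM of siVRK1 to siControl cells (log axis) for pT120, input DNA and ubK119 in 4 groups of ubK119 peaks outside input; bars are 95% intervals of counting error. The kept short peaks lay at 0.502 for pT120, 1.24 for input and 1.29 for ubK119, and their pT120 ratio lay between those of peaks found after siVRK1 only (0.369) and in siControl cells only (0.924).

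Within the kept peaks, the regions were ordered by their own ubK119 ratio of siVRK1 to siControl and divided into 3 groups of equal size, whose ubK119 ratios were 0.864, 1.28 and 1.804. The pT120 ratios of these groups were 0.571 (0.531 to 0.613), 0.567 (0.529 to 0.608) and 0.398 (0.371 to 0.426). Those of the inputs were 1.28, 1.23 and 1.22. Between the highest and the lowest group the pT120 ratio was 0.697 times (0.632 to 0.769) as high, and the input ratio 0.953 times (0.868 to 1.05), an interval that includes 1. The lower pT120 ratio of the highest group went with more summed pT120 in siControl cells. That group includes the regions on chromosomes 16 (3124492 to 3124873) and 12 (127861063 to 127861423). They held 5.37 and 5.61 RPM of siControl pT120, against a median of 0.242 RPM in all kept peaks. The groups were not recomputed without such regions, so the sums need not describe a typical region. Over input, siControl pT120 was at 1.41, 1.28 and 1.79 times in the 3 groups, and siVRK1 pT120 at 0.627, 0.587 and 0.583 times. VRK1 over input was also highest in the highest group, at 1.89 times (1.78 to 2.01), against 1.55 (1.45 to 1.65) and 1.47 (1.38 to 1.56) times in the lowest and the middle group.

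**Figure D3:**
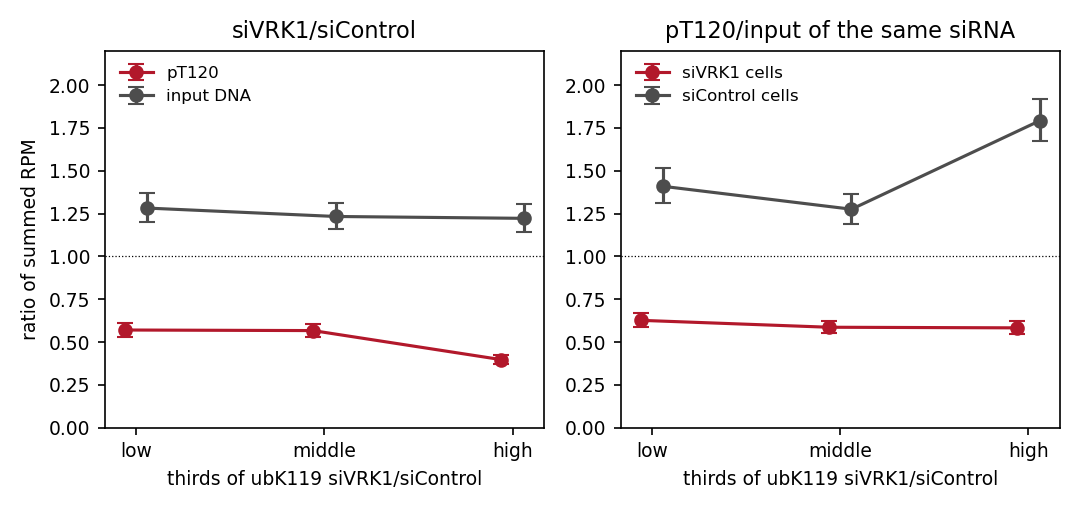
Kept short peaks in 3 groups of 275 or 276 regions, ordered from low to high by their ubK119 ratio of siVRK1 to siControl (horizontal axis); the vertical axis is a ratio of summed RPM and bars are 95% intervals of counting error. On the left, pT120 falls to 0.398 in the highest group while input stays between 1.22 and 1.28, and on the right, siControl pT120 over input reaches 1.79 in that group while siVRK1 pT120 over input lies between 0.583 and 0.627.

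The tallest kept peaks held the most VRK1 over input. In the 439 kept peaks with siControl heights of 15 to 16 reads, VRK1 over input was 1.44 times (1.36 to 1.52) and the pT120 ratio 0.533 (0.499 to 0.569). The 251 peaks of 17 to 19 reads had overlapping intervals, with VRK1 over input at 1.51 times (1.42 to 1.61) and a pT120 ratio of 0.501 (0.466 to 0.538). In the 137 peaks of 20 reads or more, VRK1 over input was 2.26 times (2.09 to 2.44) and the pT120 ratio 0.466 (0.433 to 0.501). The 29 kept peaks called with all 5 antibodies had a median siControl height of 26 reads and VRK1 at 4.48 times input. The height groups were not computed without them. Where the inputs were highest, in the top 276 regions by input, the pT120 ratio was 0.549 (0.516 to 0.585), against 0.472 (0.436 to 0.510) in the 276 regions with the lowest input. The pT120 ratio stayed below 1 in every one of these groups.

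Few kept peaks were also peaks of another antibody. A VRK1 peak overlapped 131 of them (15.8%), against 14.3% of all siControl ubK119 peaks, those in input peaks included, and 2.90% of short ones outside input peaks. A siControl pT120 peak overlapped 47 (5.68%), against 9.03% of all siControl ubK119 peaks and 0.753% of short ones outside input peaks. A siVRK1 pT120 peak overlapped 67 (8.10%), against 16.7% and 5.78% by the same count. Peaks of no other antibody were found in 667 regions. Even in these the pT120 ratio was 0.505 (0.480 to 0.531), and VRK1 stood at 1.39 times (1.33 to 1.45) its input.

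Kept peaks with a VRK1 peak differed from those without one in summed pT120 in both kinds of cells. The 131 regions with one include 29 that also had pT120 peaks of both siRNAs. Those 29 held 573 of the 1292 siVRK1 pT120 reads of the 131 regions and 818 of the 1688 siControl pT120 reads. The values of the 131 regions were not computed without them. In the 131 regions with a VRK1 peak, by library totals, pT120 stood at 1.003 times (0.926 to 1.09) its input in siVRK1 cells and 2.505 times (2.31 to 2.72) in siControl cells. In the 696 regions without one, it stood at 0.515 times (0.493 to 0.538) in siVRK1 cells and 1.24 times (1.18 to 1.299) in siControl cells. The pT120 ratio of siVRK1 to siControl was 0.439 (0.408 to 0.473) with a VRK1 peak and 0.532 (0.507 to 0.558) without, and relative to input it was 0.400 (0.357 to 0.4485) with and 0.415 (0.3899 to 0.443) without. Relative to input, the intervals of the regions with and without a VRK1 peak overlap. As a description, since ubK119 and the inputs were used in the choice of regions, ubK119 relative to input of siVRK1 to siControl was 1.36 (1.23 to 1.51) with a VRK1 peak and 0.977 (0.931 to 1.02) without.

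A small group of 29 kept peaks carried peaks of all 5 antibody libraries. These are 0.126% of the short siControl ubK119 peaks outside input and 3.51% of the kept peaks, whereas all siControl ubK119 peaks, input regions included, had 5.34%. They were higher and better aligned than the rest. Median heights were 34 reads in siVRK1 cells and 26 in siControl cells, the centres lay a median of 39.5 bp apart, and the siVRK1 peak covered a median of 95.7% of the siControl peak. In the 667 regions with ubK119 peaks alone, the medians were 19 and 16 reads, 143 bp and 47.3%.

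In 5 of the 29 regions the deposited siControl region held under 0.5 of the reads of its height. With these 5 included, pT120 ranged from 0 to 1.47 RPM with a median of 0.4996 RPM in siVRK1 cells, and from 0.0967 to 5.61 RPM with a median of 1.02 RPM in siControl cells. It was lower after siVRK1 in 26 of 29 regions (89.7%, against 78.5% of all kept peaks), and the summed ratio was 0.402 (0.361 to 0.448). The lowest pT120 peak had a height of 0.333 RPM in the siVRK1 list and 0.580 RPM in the siControl list, so a call in both lists favours this direction. Taken singly, 16 of the 29 intervals (55.2%) lay below 1 and 0 above, against 40.6% below and 3.49% above in the 1546 siControl ubK119 peaks of any length, input peaks included, that had all 5 antibodies. Scaled to regions called in both inputs, pT120 was lower in 23 of the 29 regions (79.3%, against 65.9% of all kept peaks). On that scale 8 intervals (27.6%) lay below 1 and 1 above, and the shares of the 1546 peaks were not computed. ubK119 was higher after siVRK1 in 22 of the 29 regions (75.9%) by library totals, near the 75.2% of all kept peaks. Scaled to regions called in both inputs, it was higher in 13 (44.8%), against 38.6% of all kept peaks. As a description, since the choice used ubK119 and the inputs, ubK119 relative to input of siVRK1 to siControl is given by library totals first. It was 2.395 (1.91 to 3.00) in the 29 regions and 0.968 (0.921 to 1.02) in the 667 with ubK119 peaks alone. In the 29 it was 1.61 (1.29 to 2.02) by the shared-input scale. Scaled to siControl input peaks, it was 1.14 (0.914 to 1.43) in the 29, an interval that includes 1. The 667 regions were not rescaled. The inputs were lower after siVRK1 in the 29 regions, at a ratio of 0.705 (0.5705 to 0.870). VRK1 stood at 4.48 times (3.84 to 5.25) its input there, in regions picked for having a VRK1 peak and no input peak.

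Without the 5 regions of few counted reads, 24 remained. Their pT120 ranged from 0.333 to 1.47 RPM with a median of 0.513 RPM in siVRK1 cells, and from 0.580 to 5.61 RPM with a median of 1.11 RPM in siControl cells. It was lower after siVRK1 in 22 of the 24 (91.7%, against 78.5% of all kept peaks), with a summed ratio of 0.403 (0.361 to 0.449), 15 intervals below 1 and 0 above. ubK119 was higher in 19 of the 24 regions (79.2%, against 75.2% of all kept peaks), and VRK1 stood at 4.58 times (3.91 to 5.38) its input. The summed values thus moved little, while the lowest levels belonged to the regions left out.

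**Figure D4:**
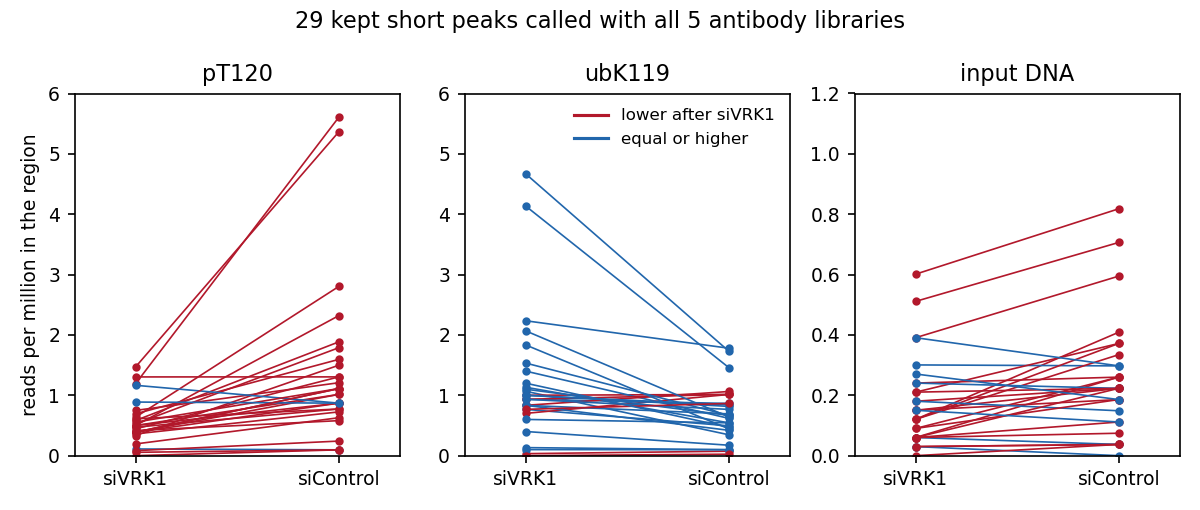
RPM in siVRK1 and siControl cells for pT120, ubK119 and input DNA in the 29 kept short peaks that were also called with every antibody; each line is 1 region, red where the level was lower after siVRK1 and blue where it was equal or higher. By library totals, pT120 was lower after siVRK1 in 26 regions (89.7%, against 78.5% of all kept peaks). ubK119 was higher in 22 (75.9%, against 75.2% of all kept peaks). In 5 of the regions the reads were under 0.5 of the height, and the input panel has its own, lower axis, with input at or below 0.818 RPM.

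The region on chromosome 16 (3124492 to 3124873) had the most VRK1 of all kept peaks by reads in the deposited siControl regions. Counted in the siVRK1 partner peaks, it held 4.31 RPM of VRK1, and the region on chromosome 1 from 205204993 to 205205195, which held 3 ubK119 reads in siControl cells, had more, at 4.84 RPM. The chromosome 16 region held 4.67 RPM of ubK119 in siVRK1 and 1.73 RPM in siControl cells, and 1.47 RPM of pT120 in siVRK1 and 5.37 RPM in siControl cells. VRK1 in that region was at 4.28 RPM, and the siVRK1 and siControl inputs were at 0.241 and 0.260 RPM. On chromosome 12 (127861063 to 127861423), ubK119 was at 4.14 RPM in siVRK1 and 1.46 RPM in siControl cells and pT120 at 1.19 RPM in siVRK1 and 5.61 RPM in siControl cells, the highest pT120 of the kept peaks by the same siControl regions. VRK1 there was at 3.68 RPM and the siVRK1 and siControl inputs at 0.150 and 0.186 RPM. Both regions thus had high pT120 in siControl cells and high ubK119 in siVRK1 cells.

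A region on chromosome 2 (177127313 to 177127523) had the steepest ubK119 difference among the peaks with most VRK1. ubK119 was at 1.83 RPM in siVRK1 and 0.445 RPM in siControl cells, a ratio of 4.12 (2.38 to 7.46). pT120 was at 0.333 RPM in siVRK1 and 1.498 RPM in siControl cells, VRK1 at 1.62 RPM, and the siVRK1 and siControl inputs at 0.0902 and 0.186 RPM. On chromosome 3 (84163786 to 84164138), pT120 was at 0.278 RPM in siVRK1 and 1.31 RPM in siControl cells, ubK119 at 1.201 and 0.544 RPM in siVRK1 and siControl cells, and VRK1 at 1.62 RPM. No pT120 peak was called there after siVRK1, and the siVRK1 input had 0 reads, which allows up to 0.0902 RPM.

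Among the kept peaks, 86 had at least 20 pT120 reads over both siRNAs, and of their intervals 35 (40.7%) lay below 1 and 0 above. Of all siControl ubK119 peaks with as many reads, 21.0% lay below and 7.03% above, and of the short ones outside input peaks, the kept ones included, 6.43% below and 14.1% above. Scaled to regions called in both inputs, 16 of the 86 (18.6%) lay below 1 and 2 (2.33%) above. On that scale, 8.38% of all siControl ubK119 peaks with as many reads lay below and 20.0% above. Of the short ones outside input peaks, 2.44% lay below and 27.1% above. The lowest ratio was on chromosome 1 (160951248 to 160951458), with 0.0555 RPM of pT120 in siVRK1 and 1.06 RPM in siControl cells, a ratio of 0.0522 (0.00595 to 0.212). ubK119 there was at 0.801 RPM in siVRK1 and 0.544 RPM in siControl cells, and VRK1 at 1.12 RPM. Chromosome 8 (86568034 to 86568293) followed at 0.144 (0.0349 to 0.445) and chromosome 7 (154665442 to 154665847) at 0.169 (0.0487 to 0.477). The next were the regions on chromosomes 3 and 12 already described, both at 0.213. Regions chosen as the lowest of many favour extreme values, and their intervals do not account for that choice.

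The highest pT120 ratios were close to counting error. Chromosome 7 (142047108 to 142047398) had 0.4996 RPM in siVRK1 and 0.193 RPM in siControl cells, a ratio of 2.58 (0.851 to 10.5). Chromosome 1 (5728796 to 5729262) had 1.95 (0.691 to 6.77). The other 3 were all on chromosome 18, from 9546056 to 9546413 with 1.49 (0.696 to 3.47), from 6239591 to 6239974 and from 6376875 to 6377311, both with 1.44. All 5 intervals include 1.

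In some high ubK119 peaks pT120 was not clearly lower after siVRK1. On chromosome 10 (28944471 to 28944693), ubK119 was at 2.24 RPM in siVRK1 and 1.78 RPM in siControl cells, and pT120 at 1.304 RPM in siVRK1 and 1.305 RPM in siControl cells. On chromosome 21 (20161071 to 20161288), pT120 was at 1.17 RPM in siVRK1 and 0.870 RPM in siControl cells, and on chromosome 6 (63297995 to 63298206) at 0.888 RPM in siVRK1 and 0.870 RPM in siControl cells. In the region on chromosome 6, ubK119 was at 0.767 RPM in siVRK1 and 0.865 RPM in siControl cells. On chromosome 19 (6594752 to 6595103), ubK119 was at 0.834 RPM in siVRK1 and 1.06 RPM in siControl cells, a ratio whose interval (0.459 to 1.31) includes 1, while pT120 was at 0.694 and 1.60 RPM in siVRK1 and siControl cells, a ratio of 0.435 (0.248 to 0.754).

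The other high ubK119 peaks were on chromosome 1 (240558051 to 240558253), with 0.4996 RPM of pT120 in siVRK1 and 1.02 RPM in siControl cells, and on chromosome 12 (32732081 to 32732418), with 0.749 RPM in siVRK1 and 1.21 RPM in siControl cells. Their pT120 ratios were 0.492 (0.247 to 0.970) and 0.620 (0.346 to 1.11) in that order, and the second interval includes 1. For 7 kept peaks the deposited region held under 0.5 of the reads of its height, and 5 of these are among the 29 regions. The highest siControl peak, on chromosome 1 from 205204993 to 205205195, was listed with 73 reads but counted 3. In its siVRK1 partner, from 205204859 to 205205204, ubK119 was at 5.74 RPM in siVRK1 and 1.81 RPM in siControl cells, and pT120 at 1.28 and 5.27 RPM in siVRK1 and siControl cells. Likewise, the peak on chromosome 18 from 45900243 to 45900445 was listed with 42 reads and counted 4, and its partner had 0.4996 and 1.11 RPM of pT120 in siVRK1 and siControl cells. Some siVRK1 partners showed the same gap. The partner on chromosome 21 (20161084 to 20161288) was listed with 34 reads and counted 1, and that on chromosome 12 (32732210 to 32732413) with 20 and 6. Partners were not screened for this, and values counted in the siVRK1 peaks include them.

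The kept peaks were unevenly spread along the genome, as were short ubK119 peaks as a whole. Chromosome 5 held 172 of them (20.8%, 18.1 to 23.7), against 12.9% of all short siControl peaks outside input, and chromosome 3 held 96 (11.6%), against 13.7%. The share of short siControl peaks that was kept was 5.82% (5.01 to 6.73) on chromosome 5, against 3.601% genome-wide. The first 3 Mb of chromosome 5, chosen after the values were seen, held 111 kept peaks (13.4%), or 15.99% (13.3 to 18.9) of the 694 short peaks there. Of all kept peaks, 299 (36.2%) lay within 10 kb of another, 77 within 1 kb, and the median distance to the nearest was 26.3 kb. Such distances were not computed for all short siControl peaks outside input, so these counts do not show closer grouping of the kept peaks. Neighbouring regions may share a source and were not treated as independent.

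In the first 3 Mb of chromosome 5 the pT120 ratio was 0.425 (0.379 to 0.476), against 0.514 (0.492 to 0.536) in the other kept peaks. The input ratio was 1.45 (1.31 to 1.60) there and 1.21 (1.17 to 1.27) in the other kept peaks, and its part in the pT120 difference was not tested. The kept peaks of chromosome 18, also chosen after the values were seen, differed in the other direction. Their pT120 ratio was 0.827 (0.712 to 0.961), against 0.481 (0.462 to 0.502) on the other chromosomes, 1.72 times (1.48 to 2.002) as high. Over input, pT120 there was at 0.965 times (0.842 to 1.11) in siVRK1 and 1.06 times (0.911 to 1.24) in siControl cells, and VRK1 at 1.14 times (0.994 to 1.31). The input ratio on chromosome 18 was 0.912 (0.790 to 1.05), against 1.27 (1.23 to 1.33) elsewhere, and the siControl input reached 1.03 RPM per kb there, against 0.705 RPM per kb elsewhere. Whether these input levels account for the difference was not tested. Among chromosomes with at least 14 kept peaks, chromosome 21 had the next highest pT120 ratio, 0.711 (0.532 to 0.953). Its interval overlaps that of chromosome 18, and the intervals do not account for the choice of the highest.

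Of the 24 chromosomes, 18 had at least 14 kept peaks, and by library totals the pT120 interval lay below 1 on all 18, from 0.378 (0.2905 to 0.489) on chromosome 8 to the value on chromosome 18. Scaled to regions called in both inputs, the interval lay below 1 on 12 chromosomes, included 1 on 5 and lay above 1 on chromosome 18, at 1.17 (1.01 to 1.36). By library totals, the input interval lay above 1 on 12 of the 18. Chromosomes X and Y had 1 kept peak each.

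**Figure D5:**
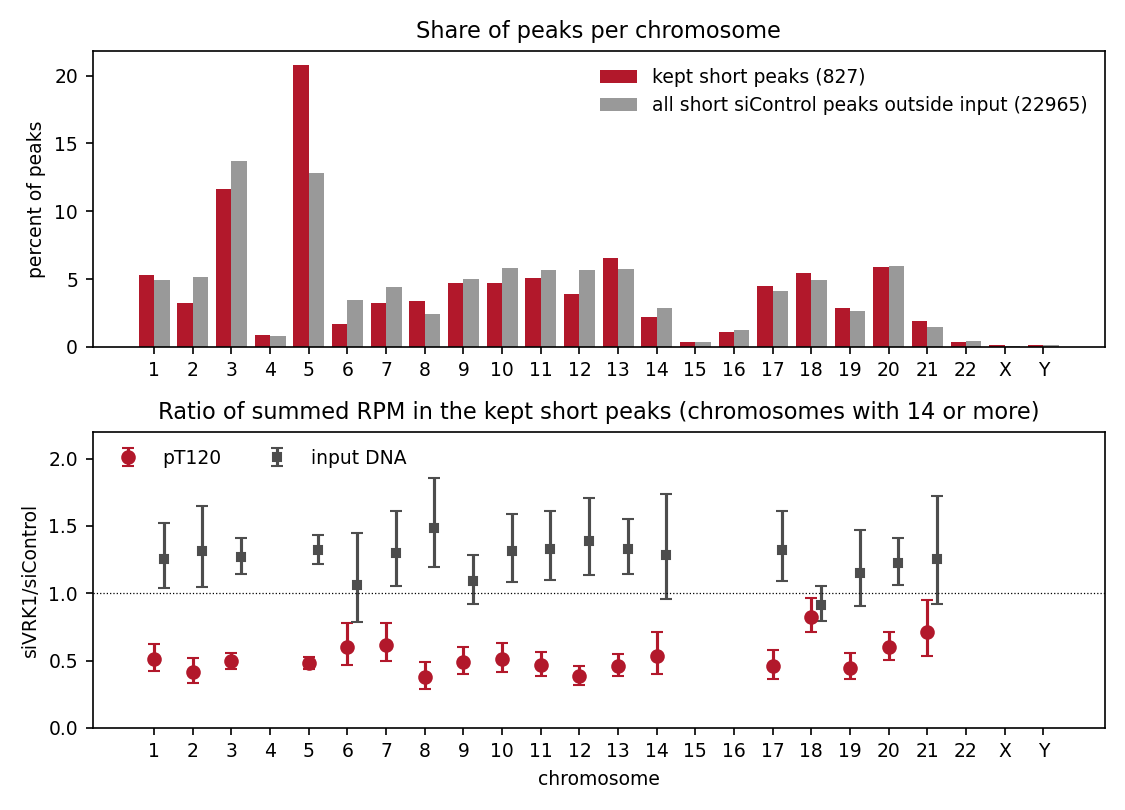
Upper panel, share of the 827 kept short peaks and of all 22965 short siControl ubK119 peaks outside input on each chromosome (percent, bars from 0). Lower panel, ratio of summed RPM of siVRK1 to siControl in the kept short peaks for pT120 and input DNA on chromosomes with at least 14 of them, with 95% intervals of counting error; chromosome 5 holds 20.8% of kept peaks, and by library totals pT120 lies between 0.378 and 0.827 on all 18 chromosomes.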

How the data were processed

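HT1080 chromatin was analysed in 7 libraries, 1 per antibody or input and siRNA, grouped by sample title. Per the submitters' processing notes, CASAVA 1.8.2, Bowtie 0.12.8, Partek and hg19 were used, without the role of each. Per the labels' protocols, libraries were amplified by PCR and sequenced on an Illumina Genome Analyzer. The sources used here do not give the peak settings, how duplicates were treated or whether input served as control. Per the file headers, each list holds 1 library's peaks with raw read counts of all 7 libraries in each region; peak height is a signal, the most extended reads in any window of the peak. The deposited RPM is that height per 1000000 reads, and height divided by RPM gave library totals. The authors' deposited p-value was not used. The deposited percent of each region covered by other peaks matched the overlap calls in all cases (0 differed).

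Ratios of summed RPM have exact conditional binomial intervals, shares exact Clopper-Pearson intervals, and ratios of 2 ratios intervals from the log scale, at 95%. Overlap meant at least 1 bp. Computation used Python 3.11.15, NumPy 2.4.6, pandas 2.3.3 and SciPy 1.17.1, and ratio intervals were tested on simulated data. Named regions are the 10 highest by siControl ubK119, the 5 with most VRK1, the 5 lowest and 5 highest pT120 ratios with at least 20 reads, up to 10 called with all 5 antibodies, and 3 on each side of 500 bp. The members and comparisons were chosen with earlier results of these data known.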

Additional observations from a re-analysis of the deposited data

How the results depend on the processing

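No paired analysis was possible because each group was 1 library and the ratios come from no test, and no library could be left out. Of 156 recomputed values, 78 stayed within the interval of the reported value or, for numbers of regions or chromosomes, within 1.5 times of it, 76 moved further and 2 changed sides of 1; the causes were not tested. Alternatives marked as added, the scaled region counts and the 24 regions left without those of few counted reads were chosen after seeing the data. The 2 reversals were the ubK119 ratio of siVRK1 to siControl, 0.972 scaled to reads in siControl input peaks and 0.958 scaled to regions called in both inputs (added). These scalings in that order gave pT120 siVRK1 to siControl 0.715 and 0.710, input 1.96 and 1.37, VRK1 over input 2.65 and 1.96, siControl pT120 over input 2.55 and 1.87, siVRK1 pT120 over input 0.931 and 0.974, and siControl ubK119 over input 5.24 and 3.89, and the second gave siVRK1 ubK119 over input 2.72. The first lowers the scaled siControl input by its construction, since that library had 10704 RPM in the regions of its own peaks and the other libraries 4377 to 6809 RPM. Both scalings gave 16 in place of 35 regions of at least 20 pT120 reads with an interval below 1, 124 in place of 195 regions at or below 0.5, 33 in place of 14 at or above 2, and 8 in place of 16 of the 29 regions with an interval below 1. ubK119 was higher after siVRK1 in 14 and 13 of the 29 in place of 22.

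Stricter choices of regions gave fewer regions and the same side of 1. Heights of at least 18 reads in both lists, at least 50% overlap, and lengths under 300 bp left 277, 428 and 329 regions. In that order, pT120 siVRK1 to siControl was 0.474, 0.458 and 0.575, ubK119 1.24, 1.52 and 1.25, VRK1 over input 1.89, 1.82 and 1.48, siVRK1 pT120 over input 0.701, 0.645 and 0.574, siControl pT120 over input 1.85, 1.71 and 1.22, the share with a VRK1 peak 24.9%, 22.0% and 8.51%, and with a siControl pT120 peak 13.0%, 9.35% and 2.74%. The share with a siVRK1 pT120 peak was 15.9% and 11.7% under the height and overlap choices, with siVRK1 ubK119 over input at 2.65 and 3.05, and siControl ubK119 over input at 2.67 under the height choice. Lengths under 1000 bp gave pT120 over input of 0.568 in siVRK1 and 1.42 in siControl cells.

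Reads counted in the siVRK1 peak gave 0.438 for pT120 and 1.99 for ubK119 siVRK1 to siControl, with ubK119 over input at 3.06 in siVRK1 and 1.91 in siControl cells and siVRK1 pT120 over input at 0.530. Medians of single-region ratios gave VRK1 over input 1.46, pT120 over input 0.531 in siVRK1 and 1.29999 in siControl cells, and ubK119 over input 2.39 in siVRK1 and 2.37 in siControl cells. Without the 10% of regions with most input, VRK1 over input was 1.76, siControl pT120 over input 1.60, and ubK119 over input 2.72 in siVRK1 and 2.68 in siControl cells. Without the 29 regions called with all antibodies (added), VRK1 over input was 1.502, pT120 over input 0.535 in siVRK1 and 1.31 in siControl cells, siVRK1 ubK119 over input 2.46, and the shares with siVRK1 pT120, siControl pT120 and VRK1 peaks 4.76%, 2.26% and 12.8%. Without chromosome 5 (added), siVRK1 pT120 over input was 0.628. With 3 reads worth up to 0.145 RPM, depth limits single regions, and a difference between siRNAs and one between 2 libraries cannot be told apart.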
